A study of Mus musculus with 12 samples.

Results

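The genes described here are 10 antioxidant genes of the NRF2 pathway: Nfe2l2, Keap1, Nqo1, Gclm, Gclc, Txnrd1, Srxn1, Slc7a11, Gsr and Prdx1. They were taken by symbol from a deposited table of 22294 genes, as a pathway chosen with earlier results of these data known, and all 10 were found and passed the filter on low values. RNA was sequenced in 12 libraries of mouse endometrial cells that magnetic beads against the macrophage antigen F4/80 had retained, with 3 libraries in each of 4 groups. The primed MSC group consisted of mice with the intrauterine adhesion (IUA) model that received human umbilical cord mesenchymal stromal cells (MSC) after these had been primed with inflammatory cytokines. The control MSC group consisted of IUA mice given control MSC. The IUA group had the model and no MSC, and the Sham group had a sham operation and is labelled untreated. The model, in which scar tissue joins the walls of the uterine cavity, was thus shared by all groups except Sham. The name Matrigel appears on the IUA libraries alone, and what it stands for in the model is not stated, nor are the strain, the age or the number of mice per library. Nothing in the labels says that libraries of a group came from separate mice, so a p-value reflects only how far these libraries scatter, which may be technical.

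NRF2, encoded by Nfe2l2, is a transcription factor that pairs with small MAF proteins and binds antioxidant response elements in the promoters and enhancers of its targets. KEAP1 holds NRF2 in a CUL3 ubiquitin ligase and so leads to its degradation, and oxidants or electrophiles that modify cysteines of KEAP1 let NRF2 accumulate. The pathway therefore acts largely on the protein, which these RNA data do not show. In macrophages NRF2 targets supply glutathione, thioredoxin reduction and NADPH-dependent detoxification, and the pathway is known to restrain inflammatory genes.

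Promoter windows are shown for Slc7a11, which had the largest log2 changes against Sham of the 10 genes, for Prdx1, which had the highest level, and for Srxn1, whose level in each primed MSC library was above that of every other library. They come from RefSeq windows of 250 bases before the start (build GRCm38.p6), which 8 of the 10 members matched, and are printed 5′ to 3′ on the strand of the gene, ending before the first base of the gene in GENCODE M21. Capitals mark matches, on either strand, to the core of the antioxidant response element (TGACNNNGC or TGAGNNNGC) and to the amino acid response element bound by ATF4 (TGATGCAA), and these 3 motifs do not overlap within the windows shown.
Slc7a11, chr3:50443615-50443863, minus strand: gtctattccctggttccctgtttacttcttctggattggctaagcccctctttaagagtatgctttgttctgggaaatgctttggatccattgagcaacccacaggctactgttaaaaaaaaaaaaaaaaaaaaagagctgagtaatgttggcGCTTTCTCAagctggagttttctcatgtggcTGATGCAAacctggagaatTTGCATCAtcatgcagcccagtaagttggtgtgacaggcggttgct
Srxn1, chr2:152105274-152105515, plus strand: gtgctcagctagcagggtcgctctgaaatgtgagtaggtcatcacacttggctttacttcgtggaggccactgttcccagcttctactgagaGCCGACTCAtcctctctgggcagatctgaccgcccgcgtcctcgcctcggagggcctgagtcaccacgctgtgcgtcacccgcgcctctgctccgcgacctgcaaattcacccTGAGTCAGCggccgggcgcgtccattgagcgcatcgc
Prdx1, chr4:116685349-116685543, plus strand: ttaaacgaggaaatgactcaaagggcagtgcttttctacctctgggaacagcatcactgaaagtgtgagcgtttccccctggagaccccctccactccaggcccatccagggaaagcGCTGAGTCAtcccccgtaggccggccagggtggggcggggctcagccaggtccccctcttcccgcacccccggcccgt
The 8 members had 10 windows, so some had more than 1. TGACNNNGC was found in the windows of Nfe2l2, Gclm, Prdx1 and Txnrd1, and in 10.2% of all 32851 windows. The Txnrd1 window with the match began at 82858956, inside the gene as annotated (82833951 to 82897712), and so lay before an internal start. TGAGNNNGC was found at 2 places in the Srxn1 window and once in that of Slc7a11, and in 14.4% of all windows. TGATGCAA was found at 2 places in the Slc7a11 window, once on each strand, and in 0.791% of all windows. A match is a string of letters and was not measured as a binding site.

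Levels are given in FPKM as deposited by the authors, a unit scaled to the length of the transcript and to the size of the library, so that genes can be compared with each other. Changes are differences of group means on the log2(FPKM + 1) scale, given ± SE, and a gene is said to rise or fall where limma's adjusted p over all 11604 tested genes was under 0.05. On that scale changes of low genes are understated. The sort antigen gene Adgre1 was at 983 to 1382 FPKM in primed MSC, 837 to 1039 in control MSC, 401 to 476 in IUA and 205 to 256 in Sham, and the macrophage markers Csf1r, Cd68 and Ptprc were detected in every library. The FPKM of 10 macrophage markers summed to 13163 to 14810.2 in primed MSC, 13082 to 14140.1 in control MSC, 12299.8 to 14608 in IUA and 5578 to 7027 in Sham. All 12 uterine epithelial markers fell in primed MSC, control MSC and IUA against Sham (11 of 12 in IUA after median-ratio scaling) and none was at 0 in any library. Their sums were 1567 to 2425, 1557 to 3913, 1598 to 5379 and 8063 to 14054 FPKM in primed MSC, control MSC, IUA and Sham. Epithelial RNA was thus present in all libraries, with its highest sums in Sham. On the FPKM as deposited, all 9 endothelial markers also fell in the 3 comparisons with Sham. Of 6 smooth muscle markers, 6, 6 and 4 fell in primed MSC, control MSC and IUA. The counts were 3, 4 and 2 of 7 stromal and 3, 4 and 2 of 5 mast cell markers, and none rose. Of 3 tested T and NK cell markers 2, 1 and 1 fell, and none rose. These counts are to be read beside the 45.0%, 42.7% and 45.0% of all tested genes that fell in the same comparisons. Of 7 tested neutrophil markers 4, 5 and 6 rose, and of 2 tested B cell markers 1 rose in each. Beside them 14.5%, 14.1% and 11.1% of all tested genes rose. In each Sham library 7 or 8 of the 10 neutrophil and 4 of the 5 B cell markers were under 1 FPKM. Several of those tested thus passed the filter on low values only through the other groups, so their rise was partly set by the filter. In primed MSC against IUA 4 of 10 macrophage markers rose, and 2 of 7 stromal, 1 of 9 endothelial and 2 of 7 tested neutrophil markers fell. There 12.2% of all tested genes rose and 6.97% fell. In control MSC against IUA 1 macrophage marker rose and 1 neutrophil marker fell, beside 0.724% and 0.129% of all tested genes. In bulk samples fewer cells of a type and less RNA per cell cannot be told apart. The part of these marker differences in the comparisons with Sham or with IUA was not tested.

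The comparisons with Sham also carried a shift of all genes. The median log2 change over all tested genes was -0.33 for primed MSC, -0.30 for control MSC and -0.35 for IUA, each against Sham. It was 0.03, 0.02 and -0.01 in the same 3 comparisons after median-ratio scaling, which sets the libraries to a common median ratio. Changes against Sham are therefore given on the deposited scale, beside values as TPM, after median-ratio scaling or after quantile normalization where these changed a call or a direction.

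Slc7a11 (chromosome 3, 49892526 to 50443614, minus strand), the light chain of the cystine and glutamate antiporter that brings in cystine for glutathione, differed most. Its level was 131, 116 and 119 FPKM in primed MSC, 97.2, 113 and 113 in control MSC, 135, 95.8 and 69.4 in IUA, and 30.8, 20.1 and 28.7 in Sham. Every library with the model lay above all 3 Sham libraries, and IUA replicate 3 was the lowest of them. Slc7a11 rose in primed MSC (log2 change 2.18 ± 0.21, adjusted p = 1.14e-05), in control MSC (2.00 ± 0.21, 2.48e-05) and in IUA (1.85 ± 0.21, 6.38e-05), each against Sham. In IUA against Sham, 1.08% of tested genes had a larger log2 change. The rise was past the threshold on every scale and without any one library, with changes of 1.61 to 2.24 in IUA, 1.82 to 2.37 in control MSC and 2.00 to 2.59 in primed MSC. The IUA replicates spread widely, from 69.4 to 135 FPKM, and those of primed and control MSC less so. Primed MSC against IUA gave 0.33 ± 0.21 with a 95% interval from -0.12 to 0.79 (adjusted p = 0.275). Without IUA replicate 1 that change was 0.57 and passed (adjusted p = 0.0432; 0.0432 to 0.760 over the alternatives).

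**Figure D1:**
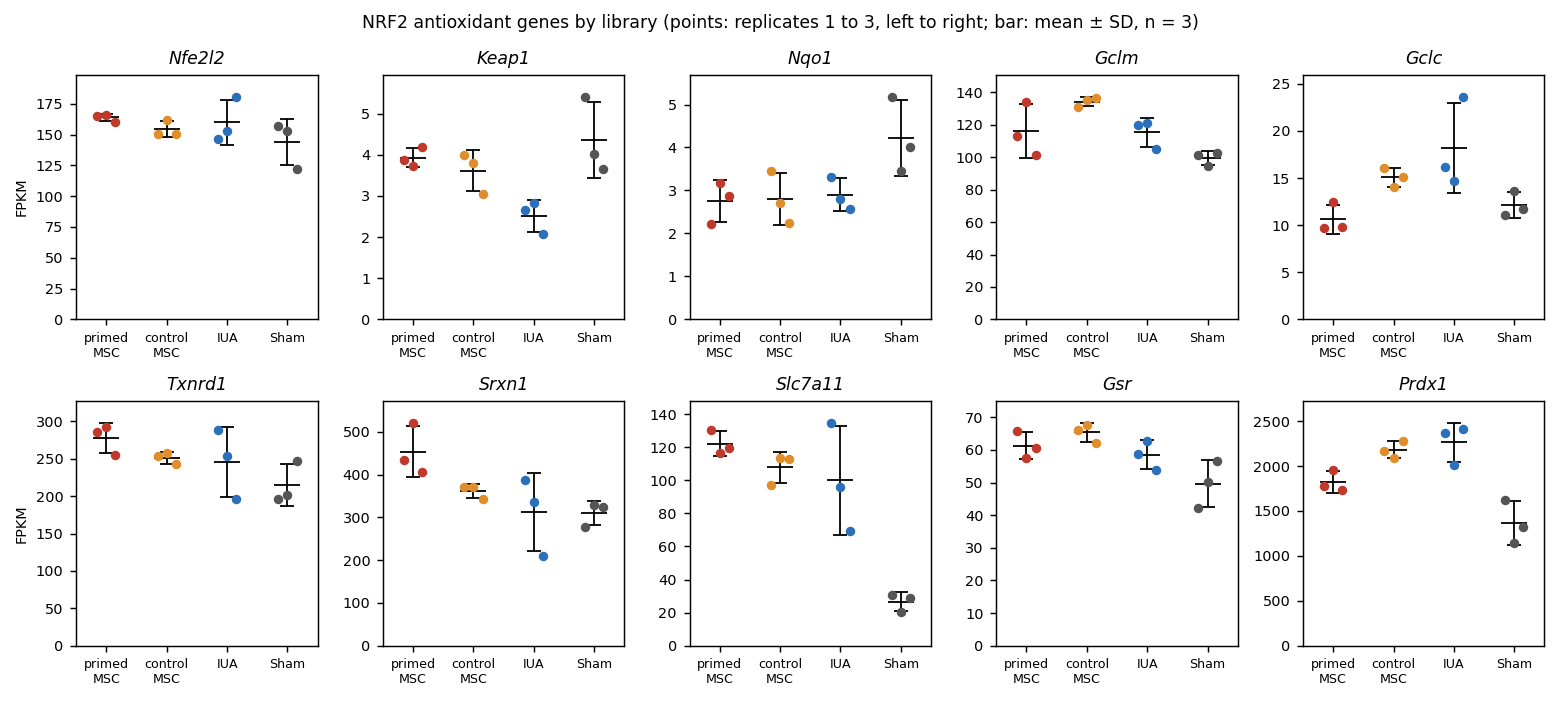
FPKM of the 10 genes in each library (y axis, linear from 0) in primed MSC, control MSC, IUA and Sham, with points for replicates 1 to 3 and a bar with whiskers for the mean ± SD (n = 3). Slc7a11 at 20.1 to 30.8 FPKM in Sham lies below every other library, and IUA replicate 3 lies apart from its group for Gclc and Srxn1.

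Glutamate-cysteine ligase makes the first product of glutathione synthesis and has a catalytic subunit, Gclc, and a modifier subunit, Gclm, and the levels of the 2 genes did not follow each other. Gclc (chromosome 9, 77754535 to 77794485) was at 9.67, 12.4 and 9.85 FPKM in primed MSC, 16.02, 14.1 and 15.1 in control MSC, 16.2, 14.7 and 23.6 in IUA, and 11.1, 13.65 and 11.7 in Sham. All 3 primed MSC libraries lay below all control MSC and all IUA libraries. Gclc fell in primed MSC against IUA (-0.70 ± 0.17, adjusted p = 0.0144) and rose in IUA against Sham (0.52 ± 0.17, adjusted p = 0.0186). The fall missed the threshold in 3 of 23 alternatives (without primed MSC replicate 1 or 3 and with only these 2 groups fitted, adjusted p 0.00950 to 0.0575 over all) and passed without IUA replicate 3 (-0.50, adjusted p = 0.0373). The rise in IUA was lost without that library (0.33, adjusted p = 0.0624), without Sham replicate 1 (0.46, 0.0587) and without Sham replicate 3 (0.50, 0.0517). It was also lost with only IUA and Sham fitted (0.52, adjusted p = 0.0547), against a range of 0.00155 to 0.0624 over all alternatives. Primed MSC against control MSC gave -0.47 ± 0.17 (95% interval -0.83 to -0.11, adjusted p = 0.273), so a difference between the 2 MSC preparations was not called. Primed MSC against Sham gave -0.18 ± 0.17 (adjusted p = 0.375), and 0.21 after median-ratio scaling and 0.17 after quantile normalization, so that its direction depends on the scale. Control MSC against Sham gave 0.29 ± 0.17 (adjusted p = 0.149) and passed after median-ratio scaling (0.65, adjusted p = 0.00811) and quantile normalization (0.64, 0.00902).

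Gclm (chromosome 3, 122245557 to 122270732) was at 113, 134 and 101 FPKM in primed MSC, 131, 135 and 137 in control MSC, 120.2, 121 and 105 in IUA, and 101, 94.5 and 103 in Sham. Every control MSC library was above every IUA and Sham library. Gclm rose in control MSC against Sham (0.43 ± 0.11, adjusted p = 0.00483) under every alternative other than a minimum log2 change of 1. In IUA against Sham (0.21 ± 0.11, adjusted p = 0.115) and primed MSC against Sham (0.21 ± 0.11, adjusted p = 0.107) it did not pass on the deposited scale, and it did after median-ratio scaling (0.61, adjusted p = 0.00216, in IUA and 0.63, adjusted p = 0.00122, in primed MSC) and quantile normalization (0.32, 0.0386, in IUA and 0.36, 0.0209, in primed MSC), as did primed MSC without its replicate 3 (0.30, adjusted p = 0.0351). The ratio of Gclc to Gclm FPKM was 0.0918 ± 0.00596 in primed MSC, 0.112 ± 0.00936 in control MSC, 0.160 ± 0.0565 in IUA and 0.122 ± 0.0192 in Sham (mean ± SD, n = 3 each). The primed MSC ratios, 0.0854 to 0.0972, were below those of every other library, and IUA replicate 3 at 0.225 was the highest.

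Gsr (chromosome 8, 33652523 to 33698163) encodes glutathione reductase, which regenerates glutathione with NADPH. Its level was 65.9, 57.6 and 60.55 FPKM in primed MSC, 66.3, 67.7 and 62.3 in control MSC, 58.8, 62.75 and 53.9 in IUA, and 42.3, 50.2 and 56.5 in Sham. Gsr rose in control MSC against Sham (0.40 ± 0.11, adjusted p = 0.00983) and in primed MSC against Sham (0.31 ± 0.11, adjusted p = 0.0333). As TPM the control MSC change was 0.30 and did not pass (adjusted p = 0.0512, the highest of its alternatives, from 3.49e-04). The primed MSC change did not pass without Sham replicate 1, the lowest library (0.20, adjusted p = 0.134), nor as TPM (0.25, 0.0930), nor without Sham replicate 2 or primed MSC replicate 1 or 3. It also missed with only primed MSC and Sham fitted (adjusted p = 0.0572) and with replicate number as a block (0.0545). Its adjusted p was 4.70e-04 to 0.134 over the alternatives. IUA against Sham gave 0.24 ± 0.11 (adjusted p = 0.0893) and passed after median-ratio scaling (0.64, adjusted p = 0.00164), after quantile normalization (0.43, 0.0122) and without Sham replicate 3 (0.34, 0.0325).

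Prdx1 (chromosome 4, 116685544 to 116700822) encodes peroxiredoxin 1, an abundant enzyme that reduces hydrogen peroxide and is itself reduced by thioredoxin. It had the highest level of the 10 genes in every library. Its level was 1776, 1959 and 1732 FPKM in primed MSC, 2169.9, 2093 and 2279 in control MSC, 2365, 2015 and 2409 in IUA, and 1625, 1147 and 1322 in Sham. Prdx1 rose in IUA (0.74 ± 0.13, adjusted p = 6.53e-04), in control MSC (0.69 ± 0.13, 8.28e-04) and in primed MSC (0.43 ± 0.13, 0.0125), each against Sham. The first 2 rises held in every alternative other than a minimum log2 change of 1. That in primed MSC was 0.26 after quantile normalization (adjusted p = 0.0884, with 4.60e-04 to 0.0884 over the alternatives), 0.31 without Sham replicate 2 (0.0603) and 0.38 without primed MSC replicate 2 (0.0513). The primed MSC libraries lay below every control MSC and IUA library, by -0.31 ± 0.13 against IUA (adjusted p = 0.111) and -0.26 ± 0.13 against control MSC (adjusted p = 0.425), neither of which passed.

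Srxn1 (chromosome 2, 152105516 to 152111376) encodes sulfiredoxin, which restores overoxidized peroxiredoxins. Its level was 434, 521 and 407 FPKM in primed MSC, 371, 371 and 343 in control MSC, 388, 337 and 211 in IUA, and 277, 328 and 324 in Sham. Each primed MSC library was above each library of the other groups. Srxn1 rose in primed MSC against IUA (0.58 ± 0.19, adjusted p = 0.0476) and against Sham (0.55 ± 0.19, adjusted p = 0.0232). The call against IUA was lost in 14 of 23 alternatives. Primed MSC against control MSC gave 0.32 ± 0.19 (95% interval -0.09 to 0.72, adjusted p = 0.512). The rise against Sham was lost without Sham replicate 1 (0.47, adjusted p = 0.0766), without primed MSC replicate 2 (0.44, 0.0907) and after quantile normalization (0.46, 0.0669), with 0.00129 to 0.0907 over the alternatives. IUA against Sham gave -0.03 ± 0.19 on the deposited scale and 0.38 after median-ratio scaling, and passed on neither. Control MSC against Sham gave 0.23 ± 0.19 (adjusted p = 0.312) and passed after median-ratio scaling (0.61, adjusted p = 0.0195).

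Txnrd1 (chromosome 10, 82833951 to 82897712) encodes the cytosolic thioredoxin reductase. Its level was 286, 292 and 255 FPKM in primed MSC, 254, 258 and 242 in control MSC, 288, 253 and 196 in IUA, and 196, 201 and 247 in Sham. The primed MSC libraries were all above those of Sham, and the other groups overlapped with Sham. Txnrd1 rose in primed MSC against Sham (0.38 ± 0.14, adjusted p = 0.0315), a call lost without primed MSC replicate 1 or 2, without Sham replicate 1 or 2, as TPM and after quantile normalization (adjusted p 9.70e-04 to 0.0980 over the alternatives). In IUA and control MSC against Sham, log2 changes of 0.18 ± 0.14 and 0.24 ± 0.14 did not pass on the deposited scale and were 0.59 and 0.62 after median-ratio scaling, where both passed. Without IUA replicate 3, its lowest library in that group, Txnrd1 in IUA changed by 0.34 and passed (adjusted p = 0.0299).

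Nqo1 (chromosome 8, 107388225 to 107403206) encodes a quinone reductase that is widely used as a marker of NRF2 activity, and together with Keap1 it had the lowest levels of the 10 genes. Its level was 2.21, 3.17 and 2.88 FPKM in primed MSC, 3.45, 2.71 and 2.24 in control MSC, 3.32, 2.80 and 2.58 in IUA, and 5.18, 3.45 and 4.01 in Sham. Nqo1 fell in primed MSC against Sham (-0.47 ± 0.17, adjusted p = 0.0337) and in control MSC against Sham (-0.46 ± 0.17, adjusted p = 0.0403), with -0.41 ± 0.17 in IUA against Sham (adjusted p = 0.0610). After median-ratio scaling these changes were -0.14, -0.16 and -0.09 and none passed, and after quantile normalization they were -0.03, -0.01 and 0.05. The change in IUA against Sham did pass as TPM (-0.55, adjusted p = 0.0262), after GC correction (-0.49, 0.0358) and without Sham replicate 2 (-0.52, 0.0441), with 0.0262 to 0.820 over the alternatives. After GC correction the fall in primed MSC was lost (-0.44, adjusted p = 0.0532) and that in control MSC passed (-0.46, 0.0438). With no filter on low values neither passed (adjusted p = 0.0559 for primed MSC and 0.0644 for control MSC). The fall in control MSC was also lost with only control MSC and Sham fitted (adjusted p = 0.0640). Both falls were also lost without Sham replicate 1, the highest library, at -0.34 for primed MSC (adjusted p = 0.131; 0.0218 to 0.894 over the alternatives) and -0.33 for control MSC (0.151; 0.0185 to 0.963), and each was lost without some other libraries (Sham replicate 3 in both, primed MSC replicate 3 in both, and further primed MSC replicate 1 for primed MSC and control MSC replicate 2 or 3 for control MSC).

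Of the regulators, Keap1 was called in IUA against Sham and in primed MSC against IUA, and Nfe2l2 in no comparison on the deposited scale. Nfe2l2 (chromosome 2, 75675513 to 75704641, minus strand) was at 165, 166 and 161 FPKM in primed MSC, 151, 162 and 150.2 in control MSC, 147, 153 and 181 in IUA, and 157, 153 and 122 in Sham. Its log2 changes lay between -0.05 ± 0.11 (control MSC against IUA) and 0.19 ± 0.11 (primed MSC against Sham). Relative to the shift of all genes it was higher, and after median-ratio scaling Nfe2l2 rose in primed MSC (0.62, adjusted p = 0.00111), control MSC (0.49, 0.00499) and IUA (0.56, 0.00289) against Sham. After quantile normalization it rose in primed MSC against Sham alone (0.27, adjusted p = 0.0418).

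Keap1 (chromosome 9, 21229730 to 21239361, minus strand), the NRF2 inhibitor, was at 3.87, 3.73 and 4.19 FPKM in primed MSC, 3.99, 3.81 and 3.05 in control MSC, 2.66, 2.82 and 2.08 in IUA, and 5.41, 4.01 and 3.65 in Sham. All IUA libraries were below all libraries of the other groups. Keap1 fell in IUA against Sham (-0.60 ± 0.16, adjusted p = 0.00642), with -0.28 (adjusted p = 0.137) after median-ratio scaling and -0.14 (0.437) after quantile normalization (0.00246 to 0.437 over the alternatives). Keap1 rose in primed MSC against IUA (0.49 ± 0.16, adjusted p = 0.0451), a call lost in 13 of 22 alternatives. Control MSC against IUA gave 0.39 ± 0.16 (adjusted p = 0.209) and primed MSC against control MSC 0.10 ± 0.16 (95% interval -0.24 to 0.44, adjusted p = 0.839). Against Sham, primed MSC gave -0.11 ± 0.16 and control MSC -0.21 ± 0.16 on the deposited scale, 0.23 and 0.10 after median-ratio scaling, and 0.33 and 0.23 after quantile normalization, with no call on these scales.

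Counted over the 10 genes, IUA against Sham had 3 higher calls (Slc7a11, Prdx1 and Gclc) and 1 lower (Keap1), where 56.2% of all tested genes were called, 11.1% higher and 45.0% lower. Control MSC against Sham had 4 higher (Slc7a11, Prdx1, Gclm and Gsr) and 1 lower (Nqo1), beside 56.8% of all tested genes called, 14.1% higher and 42.7% lower. Primed MSC against Sham had 5 higher (Slc7a11, Srxn1, Prdx1, Txnrd1 and Gsr) and 1 lower (Nqo1), beside 59.5% called, 14.5% higher and 45.0% lower. The median log2 change of the 10 genes was 0.20, 0.26 and 0.26 in these 3 comparisons, and the Sham libraries are common to them. After quantile normalization 5, 5 and 4 of the 10 genes were higher in IUA, control MSC and primed MSC, and 0 lower. All tested genes had 2594 higher and 2645 lower, 2971 and 2845, and 3140 and 3063 calls on that scale. As TPM 3 were higher in each, with 2, 1 and 1 lower, beside 1078 and 6118, 1391 and 5711, and 1553 and 5609 calls. After median-ratio scaling the counts were 7 higher and 0 lower in IUA, 8 and 0 in control MSC, and 7 and 0 in primed MSC. All tested genes then had 2656 higher and 2572 lower calls in IUA against Sham, in place of 1291 and 5226, 3042 and 2803 in control MSC against Sham, in place of 1632 and 4960, and 3240 and 2913 in primed MSC against Sham, in place of 1684 and 5219. By the moderated F test of limma 7 of the 10 genes differed among the 4 groups, as did 67.0% of all tested genes. The 3 that did not pass were Nfe2l2, Nqo1 and Txnrd1.

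**Figure D2:**
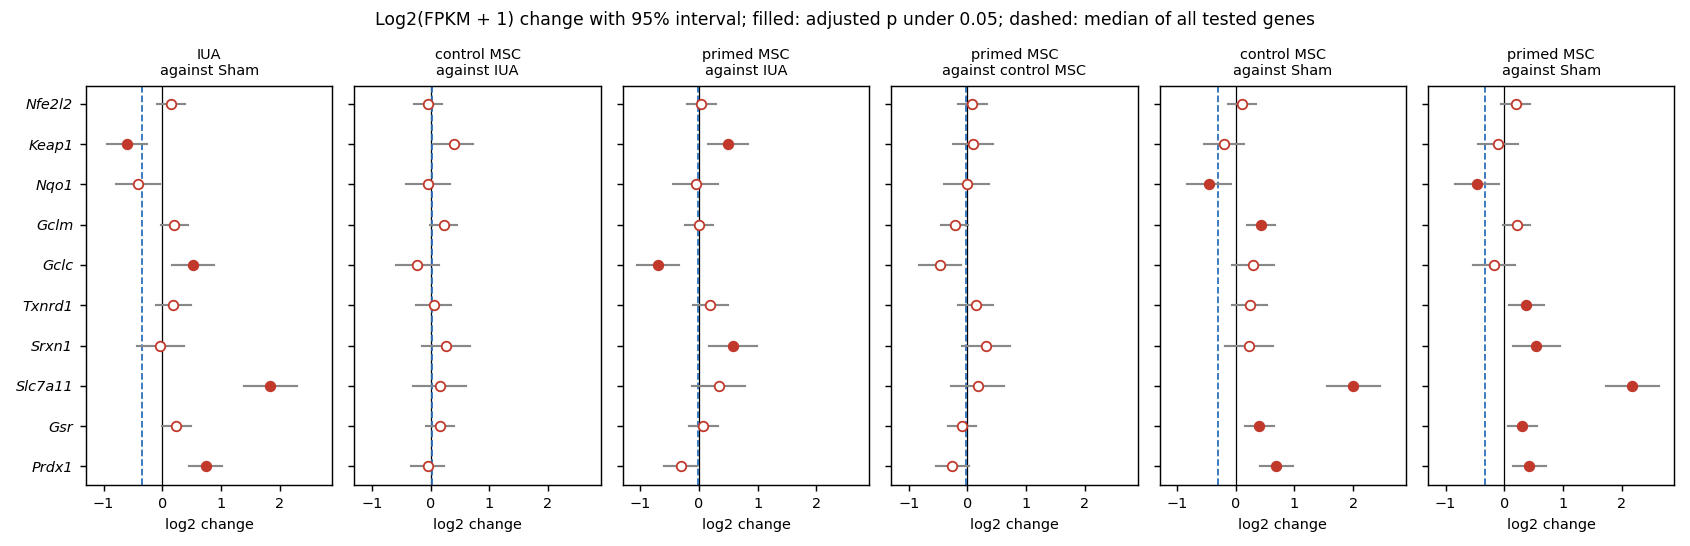
Log2 change of each gene with its 95% interval (x axis) in 6 comparisons, with filled points for an adjusted p under 0.05 and a dashed line at the median of all tested genes. Slc7a11 stands apart at 1.85 to 2.18 in the 3 comparisons with Sham, and no point is filled in control MSC against IUA or in primed MSC against control MSC.

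**Figure D3:**
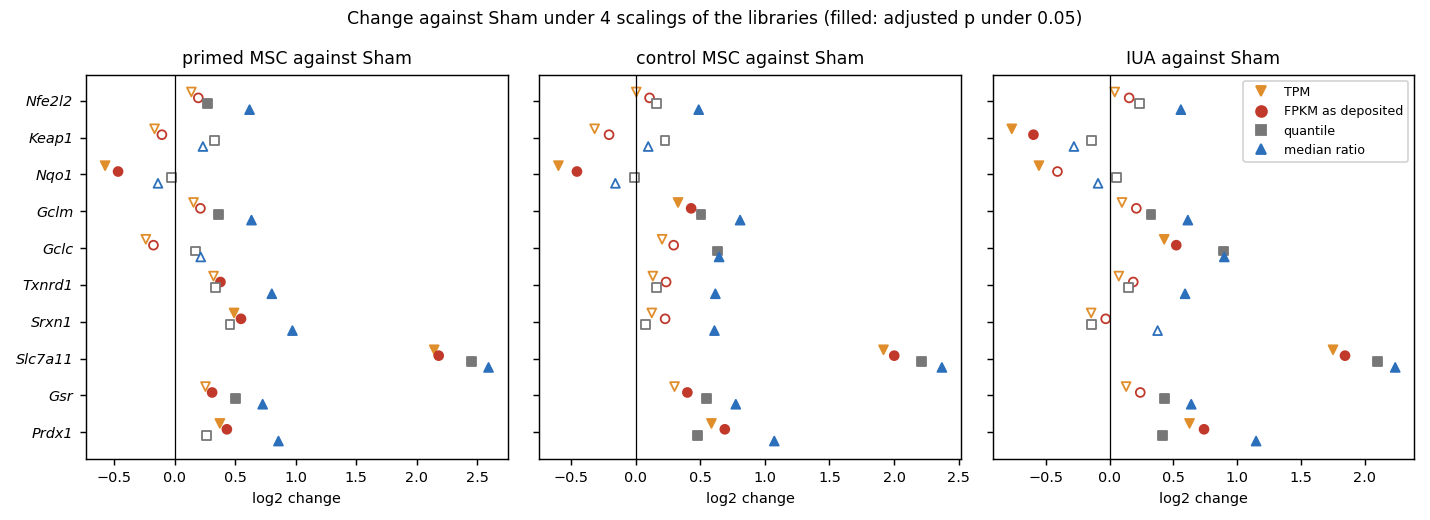
Log2 change against Sham (x axis) of each gene under 4 scalings of the libraries, in primed MSC, control MSC and IUA, with filled symbols for an adjusted p under 0.05. Slc7a11 is filled under every scaling, whereas the lower calls of Keap1 and Nqo1 are open under median-ratio scaling and quantile normalization.

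Treatment was compared within the IUA groups. In control MSC against IUA limma called none of the 10 genes, where 0.853% of all tested genes were called, 0.724% higher and 0.129% lower. Of the 10 genes 1 (Keap1) had an unadjusted limma p under 0.05, as did 2182 of all 11604 tested genes. The median log2 change of the 10 genes was 0.10, and that of all tested genes 0.02. In primed MSC against IUA 2 genes were higher (Srxn1 and Keap1) and 1 lower (Gclc), beside 19.1% of all tested genes called, 12.2% higher and 6.97% lower, and the medians were 0.05 for the 10 genes and -0.03 for all. In primed MSC against control MSC limma called none of the 10 genes, where 0.112% of all tested genes were called, 0.0776% higher and 0.0345% lower. Of the 10 genes 1 (Gclc) had an unadjusted limma p under 0.05, as did 1496 of all 11604 tested genes. A gene called in primed MSC against IUA and not in control MSC against IUA is therefore not shown to differ between the MSC preparations.

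Libraries differed in how their values varied with GC content. For each gene a library's log2 value was taken as its deviation from the gene's mean over the 12 libraries. These deviations were correlated (Spearman) with the GC content of the transcripts, across genes, which are not independent. The correlation was 0.140 to 0.218 in primed MSC, -0.090 to 0.090 in control MSC, -0.145, -0.179 and -0.482 in IUA, and 0.065 to 0.092 in Sham. IUA replicate 3 was thus the most tilted library relative to the others. Srxn1 transcripts have a GC content of 60.3%, above that of 97.2% of tested genes, and those of Keap1 59.1%, above 94.9%, whereas Gclc at 50.4% lies at the middle. After a GC correction Srxn1 changed by 0.25 (adjusted p = 0.254) and Keap1 by 0.20 (0.328) in primed MSC against IUA, and neither passed, whereas Gclc was still lower (-0.66, adjusted p = 0.0173). Without IUA replicate 3 the values were 0.32 (adjusted p = 0.122) for Srxn1 and 0.40 (0.139) for Keap1. The call for Srxn1 was lost in 14 of 23 alternatives (adjusted p 0.0134 to 0.256) and that for Keap1 in 13 of 22 (0.0291 to 0.365).

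**Figure D4:**
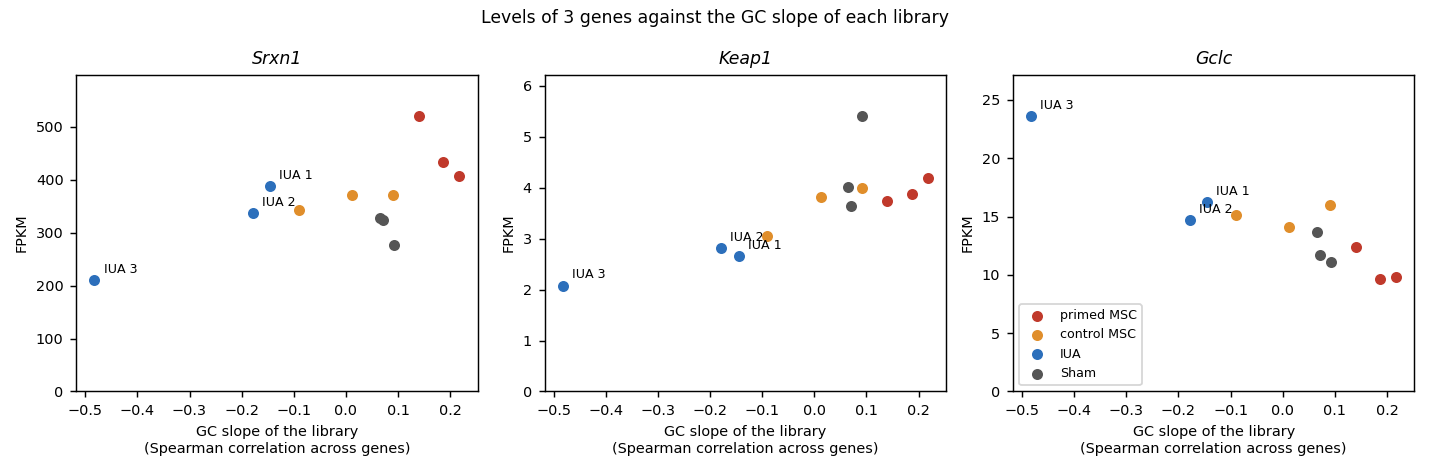
FPKM of Srxn1, Keap1 and Gclc (y axis, linear from 0) in each of the 12 libraries against the GC tilt of the library (x axis), coloured by group. The tilt is the Spearman correlation, across genes, of the library's deviations from each gene's mean with GC content. IUA replicate 3, at -0.482, has the lowest Srxn1 (211 FPKM) and Keap1 (2.08) and the highest Gclc (23.6).

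The wider pathway was described with 8 lists of related genes, to be read beside the 11.1% of all tested genes called higher and 45.0% called lower in IUA against Sham, and the 12.2% higher and 6.97% lower in primed MSC against IUA. The list of 12 genes of NRF2 regulation also held Hmox1, a target of NRF2 and not a regulator. Of these 12 genes, 2 rose, Hmox1 among them, and 4 fell in IUA against Sham (median log2 change -0.11, against -0.35 over all genes). After median-ratio scaling 5 rose and 3 fell. Mafk, a small MAF partner of NRF2, was at 48.7 ± 5.03 FPKM in primed MSC, 42.06 ± 4.92 in control MSC, 42.2 ± 9.93 in IUA and 89.0 ± 9.66 in Sham, and fell in IUA against Sham (-1.08 ± 0.16, adjusted p = 3.07e-04). Nfe2l1, a related CNC transcription factor, was at 13.7 ± 0.788, 9.65 ± 1.152, 6.12 ± 2.09 and 15.1 ± 1.203 FPKM in primed MSC, control MSC, IUA and Sham. It fell in IUA against Sham (-1.22 ± 0.19, adjusted p = 4.07e-04) and rose in primed MSC against IUA (1.09 ± 0.19, adjusted p = 0.00405) on all 4 scales. Btrc, a subunit of another ligase that marks NRF2 for degradation, fell in IUA against Sham (-0.64 ± 0.14, adjusted p = 0.00268), and was -0.28 (0.101) after median-ratio scaling. Cul3, the scaffold of the ligase that KEAP1 joins, fell in primed MSC against IUA (-0.41 ± 0.12, adjusted p = 0.0324), with -0.33 (0.0977) without IUA replicate 3 and -0.17 (0.269) after GC correction. Cul3 and Hmox1, heme oxygenase and a classical NRF2 target, were singled out after their values were seen. Hmox1 was at 1114 ± 205 FPKM in primed MSC, 1409.6 ± 48.6 in control MSC, 1167 ± 62.4 in IUA and 842 ± 113 in Sham, and rose in IUA against Sham (0.48 ± 0.13, adjusted p = 0.00902), with 0.19 (0.254) after quantile normalization.

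The lists that share a function with the 10 genes did not move as 1 group. Of 16 tested glutathione genes, 5 rose and 7 fell in IUA against Sham (median -0.56), and 1 rose and 4 fell in primed MSC against IUA (median -0.23). Glrx, glutaredoxin, was at 209 ± 23.9 FPKM in primed MSC, 186 ± 24.8 in control MSC, 125 ± 3.18 in IUA and 83.2 ± 11.4 in Sham, and rose in IUA against Sham (0.59 ± 0.13, adjusted p = 0.00203) and in primed MSC against IUA (0.73 ± 0.13, adjusted p = 0.00336). Gss, glutathione synthetase, the step after glutamate-cysteine ligase, was at 14.2 ± 1.61 FPKM in primed MSC, 17.5 ± 2.38 in control MSC, 20.9 ± 0.706 in IUA and 37.6 ± 7.10 in Sham. It fell in IUA against Sham (-0.80 ± 0.15, adjusted p = 8.74e-04) and in primed MSC against IUA (-0.54 ± 0.15, adjusted p = 0.0251), the last with an adjusted p of 0.0721 without IUA replicate 3. Gstp1, a glutathione transferase, fell in IUA against Sham (-0.93 ± 0.12, adjusted p = 1.64e-04). Slc3a2, the heavy chain that pairs with Slc7a11 and was added after its values were seen, was at 792 ± 54.7 FPKM in primed MSC, 723 ± 41.7 in control MSC, 704 ± 28.9 in IUA and 579 ± 50.05 in Sham. It rose in IUA against Sham by 0.28 ± 0.10 (adjusted p = 0.0240), with 0.08 (0.525) after quantile normalization, a smaller change than that of its light chain.

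Of 10 thioredoxin and peroxiredoxin genes, 2 rose and 4 fell in IUA against Sham, and 1 rose in primed MSC against IUA. Prdx5, a peroxiredoxin, was at 372 ± 32.8 FPKM in primed MSC, 393 ± 57.02 in control MSC, 348 ± 60.1 in IUA and 90.7 ± 3.24 in Sham, and rose in IUA against Sham (1.91 ± 0.14, adjusted p = 2.41e-06). Txn1, thioredoxin, rose in IUA against Sham (0.89 ± 0.12, adjusted p = 1.71e-04), and Txnip, its inhibitor, fell (-0.74 ± 0.15, adjusted p = 0.00134), with -0.35 (0.0561) after median-ratio scaling. Of 8 genes that supply NADPH, 3 rose and 3 fell in IUA against Sham, and 2 rose and 1 fell in primed MSC against IUA. G6pdx, the first enzyme of the pentose phosphate pathway, was at 43.4 ± 2.50 FPKM in primed MSC, 37.7 ± 4.93 in control MSC, 27.1 ± 2.93 in IUA and 39.3 ± 2.87 in Sham, and Pgd, a later enzyme, at 76.4 ± 5.16, 80.2 ± 7.79, 56.5 ± 6.58 and 41.1 ± 2.89 FPKM in primed MSC, control MSC, IUA and Sham. Both rose in primed MSC against IUA (0.66 ± 0.12, adjusted p = 0.00427, for G6pdx and 0.43 ± 0.11, 0.0210, for Pgd), and without IUA replicate 3 Pgd did not pass (0.34, adjusted p = 0.0655). Idh1, which makes cytosolic NADPH, fell in primed MSC against IUA (-0.69 ± 0.17, adjusted p = 0.0153; -0.65 and 0.0515 without IUA replicate 3) and rose in IUA against Sham (1.35 ± 0.17, adjusted p = 1.16e-04).

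Of 4 superoxide dismutase and catalase genes, Sod2, the mitochondrial enzyme, rose in IUA against Sham (0.88 ± 0.19, adjusted p = 0.00244), and Sod1, the cytosolic enzyme, fell in primed MSC against IUA (-0.43 ± 0.10, adjusted p = 0.0151). Sod3, the extracellular enzyme, was at 0.983 ± 0.205 FPKM in primed MSC, 1.45 ± 0.380 in control MSC, 2.08 ± 0.922 in IUA and 2.32 ± 1.25 in Sham. Primed MSC against IUA gave -0.60 ± 0.26 (adjusted p = 0.129). Sod3 fell in primed MSC against Sham (-0.68 ± 0.26, adjusted p = 0.0404), with -0.42 (0.175) after median-ratio scaling and -0.25 (0.396) after quantile normalization. Sod1 also fell in that comparison (-0.50 ± 0.10, adjusted p = 0.00155), with -0.07 (0.592) after median-ratio scaling. Of 9 detoxification genes, 1 rose and 3 fell in IUA against Sham, and 2 fell in primed MSC against IUA, namely Ephx1, an epoxide hydrolase (-1.202 ± 0.17, adjusted p = 0.00130), and Ugdh, UDP-glucose dehydrogenase (-0.65 ± 0.13, adjusted p = 0.00776). Ephx1 also fell in control MSC against IUA (-0.92 ± 0.17, adjusted p = 0.0403), with an adjusted p of 0.0789 without IUA replicate 3. Cbr1, a carbonyl reductase, fell in IUA against Sham (-1.28 ± 0.21, adjusted p = 5.32e-04).

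All 6 subunits of the phagocyte NADPH oxidase, the source of the oxidative burst, rose in IUA against Sham, with a median log2 change of 1.43, and all 6 did so on all 4 scales. Cybb, the catalytic subunit, was at 399.5 ± 37.9 FPKM in primed MSC, 450.3 ± 57.2 in control MSC, 475 ± 22.4 in IUA and 117 ± 16.5 in Sham (2.02 ± 0.13 in IUA against Sham, adjusted p = 1.59e-06), and Cyba rose by 1.87 ± 0.13 (2.50e-06). These are genes of phagocytes, and the macrophage marker list rose with them, by a median of 0.94 and with 9 of its 10 genes called. The part of that difference in the oxidase genes was not tested. Rac2, the small GTPase of the oxidase, was at 240.1 ± 46.4 FPKM in primed MSC, 202 ± 52.6 in control MSC, 73.7 ± 1.44 in IUA and 45.9 ± 5.75 in Sham. It rose in primed MSC against IUA (1.67 ± 0.18, adjusted p = 3.39e-04) and in control MSC against IUA (1.41 ± 0.18, adjusted p = 0.00942). Neutrophil markers, 10 genes of which 7 were tested, summed to 307 to 1341 FPKM in primed MSC, 646 to 1073 in control MSC, 314 to 405 in IUA and 26.4 to 78.85 in Sham, with Elane at 0 in at least 1 library of every group and both Ly6g and Elane at 0 in all Sham libraries. Against IUA none of the 7 tested neutrophil markers rose, while 2 fell in primed MSC and 1 in control MSC. Of all tested genes 6.97% and 0.129% fell in these 2 comparisons. The part of neutrophil RNA in these results was not tested.

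Slc7a11 is a target of ATF4, the transcription factor of the amino acid stress response, as well as of NRF2, so 11 other genes of that response were set beside it. In IUA against Sham 1 rose and 8 fell (median -0.75), where 11.1% of all tested genes were called higher and 45.0% lower and the median of all was -0.35, and after median-ratio scaling 2 rose and 5 fell. Asns, asparagine synthetase, was at 15.2 ± 0.993 FPKM in primed MSC, 17.5 ± 4.22 in control MSC, 20.6 ± 5.96 in IUA and 64.3 ± 12.7 in Sham, the reverse order of Slc7a11 for IUA and Sham (-1.61 ± 0.22, adjusted p = 1.77e-04). Cth, which makes cysteine from cystathionine, fell by 1.94 on the log2 scale (adjusted p = 4.34e-04) and Slc7a5, a neutral amino acid transporter, by 1.86 (2.95e-04) in the same comparison. Slc7a5 rose in primed MSC against IUA (1.19 ± 0.28, adjusted p = 0.0132). Whether ATF4 or NRF2 acted on Slc7a11 here was not tested. The part of the cell type marker differences from Sham in the levels of these genes was not tested either.

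**Figure D5:**
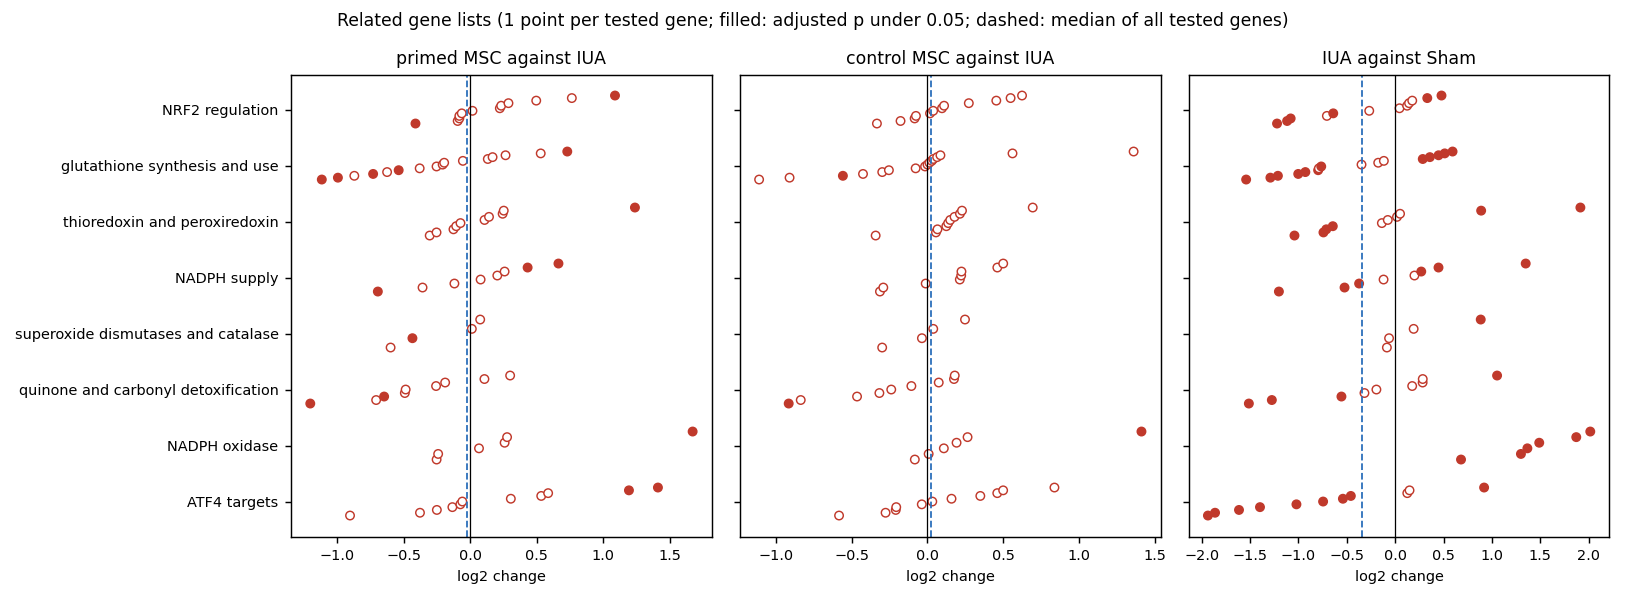
Log2 change (x axis) of each tested gene of the 8 related lists in primed MSC against IUA, control MSC against IUA and IUA against Sham, with filled points for an adjusted p under 0.05 and a dashed line at the median of all tested genes. In IUA against Sham all 6 oxidase genes are filled and above 0, while 8 of the 11 ATF4 targets are filled and below 0.

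The genes with the most similar pattern over the 12 libraries were found by the smallest root mean square distance between centred log2 profiles, as a description with no test. The nearest gene to Slc7a11 was Itgb2, a leukocyte integrin chain, at a distance of 0.178, and no other of the 10 genes came closer to Slc7a11 than Prdx1, at 0.685. For Prdx1 it was Atp6v1d (0.105), for Srxn1 Ptprj (0.128), for Txnrd1 Surf4 (0.106), for Gsr Abraxas2 (0.0871), for Gclm Prmt2 (0.0965), for Gclc Nipbl (0.122), for Nqo1 Ldb1 (0.0810), for Keap1 Uggt1 (0.103) and for Nfe2l2 Luc7l2 (0.0751). Among the 10 genes themselves the closest pair was Txnrd1 and Gsr, at 0.142.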

How the data were processed

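The authors deposited gene levels as FPKM with 2 decimals. The build mm10 and, among other tools, HISAT2 and RSEM are named in the submitters' processing notes, with no version. FPKM sums per library were 505459.9 to 563751, which is not a depth. The depth is unknown, and a search for the steps that whole reads leave did not recover them, so no count test was used. The fit used limma 3.58.1 (R 4.3.3) on log2(FPKM + 1) of the 11604 genes that reached FPKM 1 in 3 or more libraries, with 1 mean per group fitted to all 12 libraries and a variance trend. Tests were two-sided with Benjamini-Hochberg adjustment over all tested genes. No pair of libraries was identical. For 27 genes a symbol that had turned into a date was restored.

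The members, the related lists and the markers were chosen with earlier results of these data known. Named were all members, the 3 genes of each related list with the smallest F test p, 1 nearest gene per member, and 4 checks of the sort. Hmox1, Slc3a2 and Cul3 were added after their values were seen. The alternatives were a pseudocount of 0.1 or 0.5, no filter or FPKM of at least 5, TPM, median-ratio and quantile scaling, a GC correction (lowess, span 0.3), a replicate block, the 2 groups alone, a log2 change of at least 1, and leaving out each library. Positions are those of GENCODE M21 (mm10). The code was tested on simulated data.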

Additional observations from a re-analysis of the deposited data

How the results depend on the processing

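Of 60 log2 changes of the 10 genes, 18 were called, 6 of these kept the call and the direction under every alternative run other than the minimum log2 change (Slc7a11 in the 3 comparisons with Sham, Prdx1 in IUA and control MSC against Sham, and Gclm in control MSC against Sham), and no called change reversed. Median-ratio scaling gave 7 of the 10 genes called in IUA against Sham, in place of 4, and 8 in control MSC against Sham, in place of 5. Quantile normalization gave 5 in both comparisons. Requiring a log2 change of at least 1 left 1 gene, Slc7a11, in each comparison with Sham and 0 in primed MSC against IUA. In primed MSC against IUA the 3 calls became 1 with no filter on low values, 1 with the GC correction, 1 with the replicate block and GC correction together, and 0 with only the 2 groups compared; the cause was not tested. Leaving out 1 library gave 3 to 5 genes in IUA against Sham, 0 to 0 in control MSC against IUA, 0 to 3 in primed MSC against IUA (0 without primed MSC replicate 1 or 3, and 1 without Sham replicate 2, IUA replicate 3, primed MSC replicate 2 or any control MSC replicate), 0 to 0 in primed MSC against control MSC, 4 to 5 in control MSC against Sham, 2 to 6 in primed MSC against Sham (2 without Sham replicate 1) and 4 to 7 by the F test (4 without Sham replicate 2 or control MSC replicate 2 or 3).

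Same-numbered libraries correlated over 0.1 in 3 of 18 pairs (-0.293 to 0.288), and differently numbered ones spanned a like range (-0.326 to 0.269). With 3 libraries a group this shows no pairing by number and cannot exclude one. With the replicate block alone 3 genes were called in primed MSC against IUA, and Gsr in primed MSC against Sham did not pass (adjusted p = 0.0545). Over all genes, control MSC against IUA had 99 calls, 43 with the block, 44 with block and GC correction, 29 with no filter, 58 after median-ratio scaling, 39 with a log2 change of at least 1, 16 with only the 2 groups, and 5 (without control MSC replicate 2) to 329 (without IUA replicate 1) when 1 library was left out. Primed MSC against IUA had 2219, 494 with a log2 change of at least 1, 1381 with only the 2 groups, and 1154 (without primed MSC replicate 1) to 2560 when 1 library was left out. Primed MSC against control MSC had 13, 0 to 230 under the other settings (4 and 5 with pseudocounts of 0.1 and 0.5, 0 with no filter, 5 with FPKM of at least 5, 25 after median-ratio scaling, 0 with the block, with or without GC correction, 230 with only the 2 groups) and 0 to 233 (233 without IUA replicate 3) when 1 library was left out. A log2 change of at least 1 left 2159, 2492 and 2692 genes in IUA, control MSC and primed MSC against Sham. With 3 libraries a group and unknown depth, no counting error can be given for the low genes Keap1 and Nqo1.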
